A study of Homo sapiens with 6 samples.

Results

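The expression of 10 markers of tubular injury and dedifferentiation was examined in HK-2 cells in which INO80, the ATPase of a chromatin remodeling complex, was knocked down. The markers were HAVCR1, LCN2, VCAM1, VIM, SOX9, CD44, SPP1, CLU, TIMP2 and PROM1. They were taken by gene symbol from a table of 57905 genes, and each symbol matched 1 row. HK-2 is an immortalized line of human proximal tubular cells. A replicate is a library number given in the sample titles, a pair is the control and the INO80 siRNA library with the same number, and the block is a model in which the replicate number is a term beside the siRNA. The control group held 3 libraries of cells labelled wild type and transfected with a non-targeting siRNA pool. The INO80 group held 3 libraries of cells labelled knockdown and transfected with an siRNA pool against INO80. These groups were taken from the sample titles and treatment labels, while the transfection protocol in the labels names the INO80 siRNA for all 6 libraries, and the control pool is described in the study's methods. Both groups were of the same line in the same serum-containing medium, were transfected with RNAiMAX and were harvested after 48 h. Since the siRNAs were used as pools, single siRNAs cannot be told apart, and nothing in the labels says whether the replicates came from separate cultures, so the p-values measure the spread between these libraries only.

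Injured proximal tubule cells lose their brush border and transport programme, flatten, spread and re-enter the cell cycle. Among the genes switched on during this process are some that are low in the healthy tubule. HAVCR1, LCN2, SPP1, CLU and TIMP2 encode shed or secreted proteins that are measured in urine or tissue as signs of injury. VCAM1 and CD44 are adhesion receptors, VIM is a cytoskeletal protein of mesenchymal and dedifferentiated cells, and SOX9 and PROM1 mark cells of the repairing epithelium.

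The depth of the libraries ran from 16829273 to 23784599 reads assigned to genes. INO80 was measured first as the check of the labels. In CPM, which is the count divided by the TMM-scaled number of reads on tested genes, the control libraries held 46.3, 49.3 and 54.0 and the INO80 siRNA libraries 13.8, 12.0 and 14.2 for replicates 1, 2 and 3. INO80 was thus lower by a log2 fold change of -1.90, with a standard error of 0.0956 (adjusted p = 0.000161, edgeR). Of 18 proximal tubule markers, 4 had a mean of at least 1 FPKM, the count scaled by exonic length and library size, namely SLC4A4, GGT1, MME and PAX8. The endocytic receptor gene LRP2 had 1 read in all, and SLC5A1, SLC22A6, SLC22A8 and HNF4A had 0 in every library, so several defining markers of the labelled cell type were absent at this depth. Where no read was found, as many as 3 would still be compatible with counting error, the only error this bound covers.

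The levels of the 10 markers were compared with each other on the FPKM scale, which allows genes of different length to be set side by side. SPP1 was the highest, between 668.1 and 956.2 FPKM over the 6 libraries, and ranked 23rd among all genes of the table by its mean. VIM followed at 226.9 to 272.4 FPKM, and HAVCR1 at 73.1 to 92.1 FPKM. TIMP2 lay between 34.8 and 58.0 FPKM and CD44 between 25.6 and 36.0 FPKM, so that these neighbours overlapped slightly. CLU was at 5.19 to 7.51 FPKM, VCAM1 at 1.52 to 4.72 FPKM and SOX9 at 0.36 to 0.77 FPKM. LCN2, at 0 to 0.18 FPKM, and PROM1, at 0 to 0.06 FPKM, were at the bottom and overlapped each other. Apart from TIMP2 with CD44 and LCN2 with PROM1, no neighbours in this order overlapped over the 6 libraries.

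**Figure D1:**
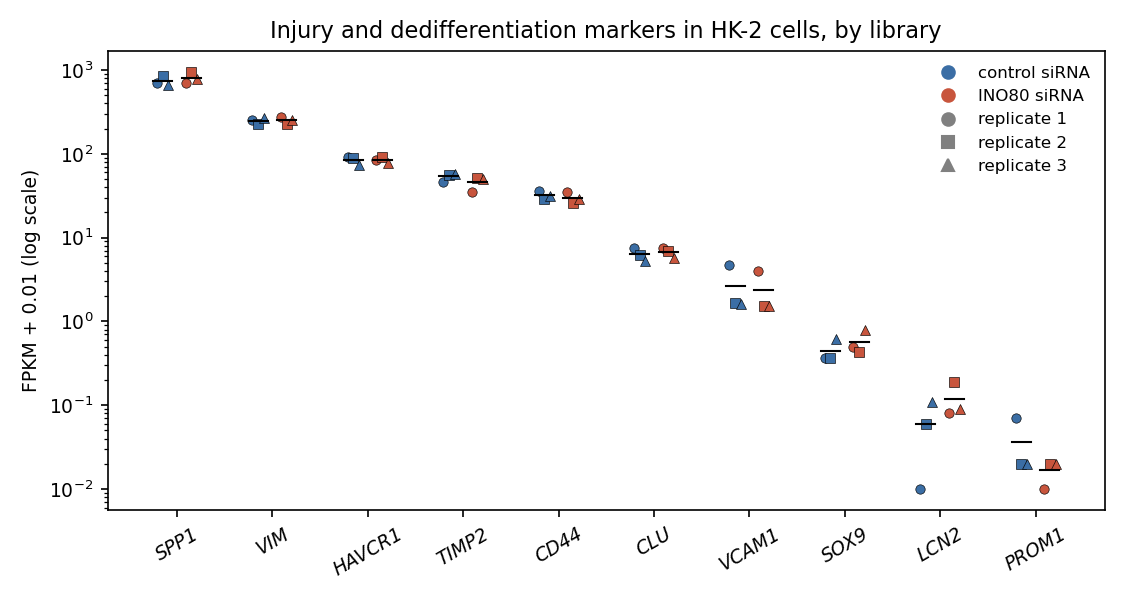
FPKM of each marker plus a pseudocount of 0.01, on a log scale, in the 3 control siRNA libraries (blue) and the 3 INO80 siRNA libraries (red). Symbols give the replicate number and black bars the group mean. SPP1 was highest, between 668.1 and 956.2 FPKM, LCN2 and PROM1 were near 0, and for each of the 8 tested markers the groups overlapped.

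Of the 10 markers, 8 had enough reads to be tested for a difference between the groups, and LCN2 and PROM1 did not. None of the 8 had an adjusted p under 0.05 in edgeR's quasi-likelihood test with the siRNA alone in the model, and none had an unadjusted p under 0.05. In that test, 2514 of all 15343 genes tested had an unadjusted p under 0.05. DESeq2 also called 0 of the 8 markers, and 610 genes over the whole table. In the edgeR fit with the siRNA alone, 1.75% of the 15343 genes were called, 1.49% as lower and 0.261% as higher. The share was 0.0912% when the change also had to reach 1 on the log2 scale in either direction. The median log2 fold change of the 8 markers was -0.0026, 4 being above 0 and 4 below, against a median of 0.0066 over all genes tested. In none of the 8 did the INO80 siRNA libraries lie wholly above or below the control siRNA libraries in CPM, while 22.8% of all tested genes had groups that did not overlap.

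When the block was added to the model, 3 of the 8 markers were called. TIMP2 and CD44 were lower and SPP1 was higher under INO80 siRNA. Over all genes tested, 24.8% were called by the block fit, 13.4% as lower and 11.4% as higher, the share against which the 3 of 8 has to be read. Few degrees of freedom remain for a single gene once the siRNA and replicate terms are fitted. The p-values and intervals of the block fit thus lean on a spread estimated over many genes, not on that of the marker alone.

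TIMP2 (ENSG00000035862, chromosome 17, 76849059 to 76921469 in GRCh37 coordinates) encodes a secreted inhibitor of matrix metalloproteinases that also takes part, with the membrane protease MMP14, in the activation of pro-MMP2. Replicates 1, 2 and 3 of control siRNA were at 270.1, 315.8 and 324.9 CPM, and those of INO80 siRNA at 201.3, 285.9 and 278.8 CPM. The 2 groups overlapped, since the control library of replicate 1 was below the INO80 siRNA libraries of replicates 2 and 3, but within each of the 3 pairs the INO80 siRNA library was the lower. The log2 ratios within the pairs were -0.42, -0.14 and -0.22. Without the block the log2 fold change was -0.25 (95% interval -0.55 to 0.05, adjusted p = 0.403, edgeR). With the block it was -0.26 (95% interval -0.34 to -0.17, adjusted p = 3.35e-05, edgeR). This call held in each of the 3 block fits that left out a pair, with log2 fold changes between -0.32 and -0.19, and in DESeq2 with the block (adjusted p = 6.41e-05). The gene DDC8 lies within the span of TIMP2 on the same strand and had 132 reads in all, against 34867 for TIMP2.

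SPP1 (ENSG00000118785, chromosome 4, 88896819 to 88904562 in GRCh37 coordinates) encodes osteopontin, a secreted phosphoprotein that binds integrins and CD44. Replicates 1, 2 and 3 of control siRNA were at 1662, 1936 and 1519 CPM, and those of INO80 siRNA at 1664, 2153 and 1743 CPM. In both groups replicate 2 was the highest. Within the pairs the log2 ratios were 0.0019, 0.15 and 0.20, so the pair of replicate 1 was almost level. The log2 fold change was 0.12 (95% interval -0.15 to 0.39, adjusted p = 0.677, edgeR), and with the block it was 0.12 (95% interval 0.05 to 0.19, adjusted p = 0.0105, edgeR). DESeq2 with the block also called SPP1 (adjusted p = 0.0355), as did the block fit without the pair of replicate 1 (log2 fold change 0.17, adjusted p = 2.82e-12, edgeR). With a pair left out, few libraries remain for the terms fitted. The p-values of such fits lean even more than those of all 6 libraries on a spread estimated over many genes, and are not stronger evidence. The block call was lost without the pair of replicate 2 (log2 fold change 0.10, adjusted p = 0.145, edgeR) and without the pair of replicate 3 (0.079, adjusted p = 0.369, edgeR).

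CD44 (ENSG00000026508, chromosome 11, 35160417 to 35253949 in GRCh37 coordinates) encodes a receptor for hyaluronan that also binds osteopontin. Replicates 1, 2 and 3 of control siRNA were at 372.1, 285.2 and 309.7 CPM, and those of INO80 siRNA at 365.3, 253.8 and 283.5 CPM. Both libraries of replicate 1 were above all others, and the INO80 siRNA library was the lower in each of the 3 pairs, by log2 ratios of -0.027, -0.17 and -0.13. With the block the log2 fold change was -0.11 (95% interval -0.18 to -0.03, adjusted p = 0.0271, edgeR), against -0.10 (95% interval -0.42 to 0.23, adjusted p = 0.787, edgeR) without it. The block fit without the pair of replicate 1 called it too (log2 fold change -0.15, adjusted p = 6.35e-06, edgeR). DESeq2 with the block did not call it (adjusted p = 0.110), nor did the block fits without the pair of replicate 2 (adjusted p = 0.332, edgeR) or replicate 3 (adjusted p = 0.242, edgeR). The counts are for the whole gene, so its splice forms were not separated, and the genes RP1-68D18.2 and RP1-68D18.4 within its span had 27 and 34 reads in all.

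**Figure D2:**
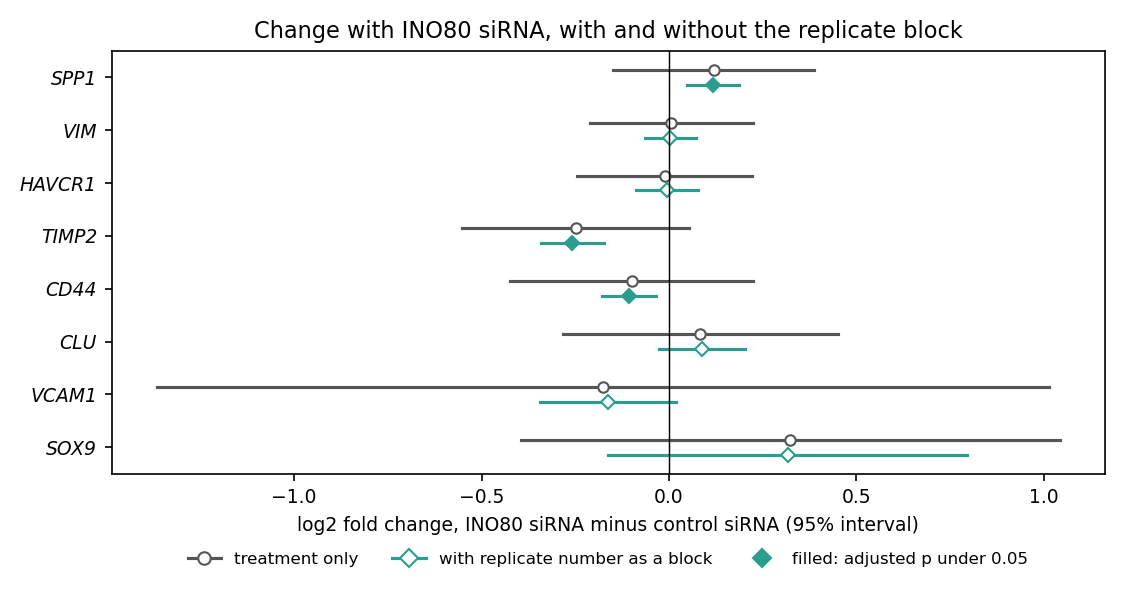
Log2 fold change of INO80 siRNA minus control siRNA for the 8 tested markers, with 95% intervals, from the model with the siRNA alone (grey circles) and with the replicate number as a block (green diamonds). Filled symbols have an adjusted p under 0.05, which were TIMP2 at -0.26, CD44 at -0.11 and SPP1 at 0.12, all with the block.

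The other 5 tested markers were called in neither fit. HAVCR1 (ENSG00000113249, chromosome 5, 156456424 to 156486130 in GRCh37 coordinates) encodes kidney injury molecule, a phosphatidylserine receptor with which tubule cells take up dead cells. Replicates 1, 2 and 3 of control siRNA were at 203.3, 189.2 and 156.2 CPM, and those of INO80 siRNA at 185.4, 193.2 and 165.6 CPM. Replicate 3 was the lowest in both groups, and the INO80 siRNA library was lower in 1 pair and higher in 2. The log2 fold change was -0.012 (95% interval -0.24 to 0.22, adjusted p = 0.974, edgeR), and with the block the interval was -0.089 to 0.077. These libraries are compatible with a change of HAVCR1 anywhere within these bounds.

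VIM (ENSG00000026025, chromosome 10, 17270258 to 17279592 in GRCh37 coordinates) encodes the intermediate filament protein vimentin. It was at 1294, 1120 and 1309 CPM in control siRNA replicates 1, 2 and 3, and at 1391, 1109 and 1240 CPM in INO80 siRNA replicates 1, 2 and 3. Replicate 2 was the lowest in both groups. The log2 fold change was 0.0065 (95% interval -0.21 to 0.22, adjusted p = 0.986, edgeR), and the block gave an interval of -0.065 to 0.072. The antisense gene VIM-AS1 overlaps VIM and had 102 reads in all, against 154187 for VIM.

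CLU (ENSG00000120885, chromosome 8, 27454434 to 27472548 in GRCh37 coordinates) encodes clusterin, a secreted chaperone. It was at 50.9, 40.7 and 34.1 CPM in control siRNA replicates 1, 2 and 3, and at 51.1, 45.4 and 36.6 CPM in INO80 siRNA replicates 1, 2 and 3. The order of the replicates was the same in both groups, and the INO80 siRNA library was higher in 3 of 3 pairs, by log2 ratios of 0.0062, 0.16 and 0.10. The log2 fold change was 0.084 (95% interval -0.28 to 0.45, adjusted p = 0.849, edgeR), and with the block the adjusted p was 0.271.

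SOX9 (ENSG00000125398, chromosome 17, 70117161 to 70122561 in GRCh37 coordinates) encodes a transcription factor that is switched on in proximal tubule cells after injury. It was counted at low depth, with 24, 29 and 45 reads in control siRNA replicates 1, 2 and 3, and 39, 39 and 72 reads in INO80 siRNA replicates 1, 2 and 3. After scaling, the control libraries were at 1.46, 1.42 and 2.33 CPM and the INO80 siRNA libraries at 1.94, 1.61 and 2.97 CPM. The INO80 siRNA library was higher in 3 of 3 pairs, by log2 ratios of 0.41, 0.19 and 0.35. SOX9 had the largest fitted change of the 8 markers, 0.32 on the log2 scale, but its 95% interval ran from -0.39 to 1.04 (adjusted p = 0.675, edgeR), and with the block from -0.16 to 0.80 (adjusted p = 0.358, edgeR).

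VCAM1 (ENSG00000162692, chromosome 1, 101185298 to 101204601 in GRCh37 coordinates) encodes an adhesion receptor for leukocyte integrins that is induced by inflammatory cytokines. It was at 29.3, 9.94 and 9.67 CPM in control siRNA replicates 1, 2 and 3, and at 25.1, 9.11 and 8.999 CPM in INO80 siRNA replicates 1, 2 and 3. The 2 libraries of replicate 1 stood far above the other 4, whatever the siRNA. Within the pairs the INO80 siRNA library was lower in 3 of 3, by log2 ratios of -0.22, -0.13 and -0.10. The log2 fold change was -0.18 with a wide 95% interval of -1.37 to 1.01 (adjusted p = 0.908, edgeR), and with the block -0.16 with an interval of -0.35 to 0.02 (adjusted p = 0.193, edgeR).

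LCN2 and PROM1 were too low to be tested. LCN2 (ENSG00000148346, chromosome 9, 130911350 to 130915734 in GRCh37 coordinates) encodes a lipocalin that binds iron-carrying siderophores and is secreted by injured tubules. It had 0, 2 and 4 reads in control siRNA replicates 1, 2 and 3, and 3, 9 and 4 reads in INO80 siRNA replicates 1, 2 and 3. PROM1 (ENSG00000007062, chromosome 4, 15964699 to 16086001 in GRCh37 coordinates) encodes a membrane glycoprotein of cell protrusions. It had 8, 2 and 2 reads in control siRNA replicates 1, 2 and 3, and 0, 1 and 1 reads in INO80 siRNA replicates 1, 2 and 3. The control and INO80 siRNA libraries of LCN2 overlapped, and those of PROM1 did not in CPM. When edgeR was run on all genes with any read, the adjusted p was 0.735 for LCN2 and 0.331 for PROM1.

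VCAM1 and LCN2 are both known to respond to NF-kB, the transcription factor of the cytokine response. The promoter windows of RefSeq on GRCh38.p14, from 250 bases before to 50 bases after the annotated start, were searched on both strands for the NF-kB site consensus. Windows were matched by symbol for 7 of the 10 markers, with 10 windows in all, and those of SOX9, CLU and TIMP2 were not analysed here. A match was found in 2 of the 10 windows, 1 each for VCAM1 and LCN2, while 11.3% of all 35116 windows held one. They are printed because one belongs to the marker that differed most between replicates and the other to a marker near 0. The stretches of 30 bases lie on the plus strand at chr1:100719670-100719699 and chr9:128149268-128149297, the matches begin 62 and 175 bases before the start, and capitals mark the match.
VCAM1: tccccttgaaGGGATTTCCCtccgcctctg
LCN2: cagcactccgGGAATGTCCCtcactctccc
The window of VCAM1 also held the letters TATAAA, which 11.5% of all windows held. No window of HAVCR1, SPP1, VIM or CD44 held the NF-kB consensus, TATAAA or TGANTCA, the last being the letters of an AP-1 site, found in 7.71% of all windows, in that of LCN2 and in 1 of the 4 of PROM1. A match of letters is a description of the reference sequence, and no binding was measured.

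The levels of most markers differed between replicate numbers. In edgeR's test of the replicate terms in the block fit, 7 of the 8 tested markers had an adjusted p under 0.05, while 26.7% of all tested genes did. The share was also high in 2 lists described below, 85.2% of 27 tested injury-associated genes and 68% of 25 tested partners of the markers. Genes of like level were not compared. Among the markers the exception was SOX9 (adjusted p = 0.0569, edgeR). VCAM1 had the smallest p, with log2 differences of -1.51 for replicate 2 and -1.54 for replicate 3 against replicate 1 (adjusted p = 2.25e-12, edgeR), and replicates 2 and 3 differed by only 0.027. CD44 was likewise highest in replicate 1, with log2 differences of -0.46 for replicate 2 and -0.32 for replicate 3 (adjusted p = 1.95e-08, edgeR). TIMP2 went the other way, being 0.36 and 0.37 higher on the log2 scale in replicates 2 and 3 than in replicate 1 (adjusted p = 2.18e-06, edgeR). CLU and HAVCR1 were lowest in replicate 3, by log2 differences of -0.53 and -0.27 against replicate 1. SPP1 was highest and VIM lowest in replicate 2.

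**Figure D3:**
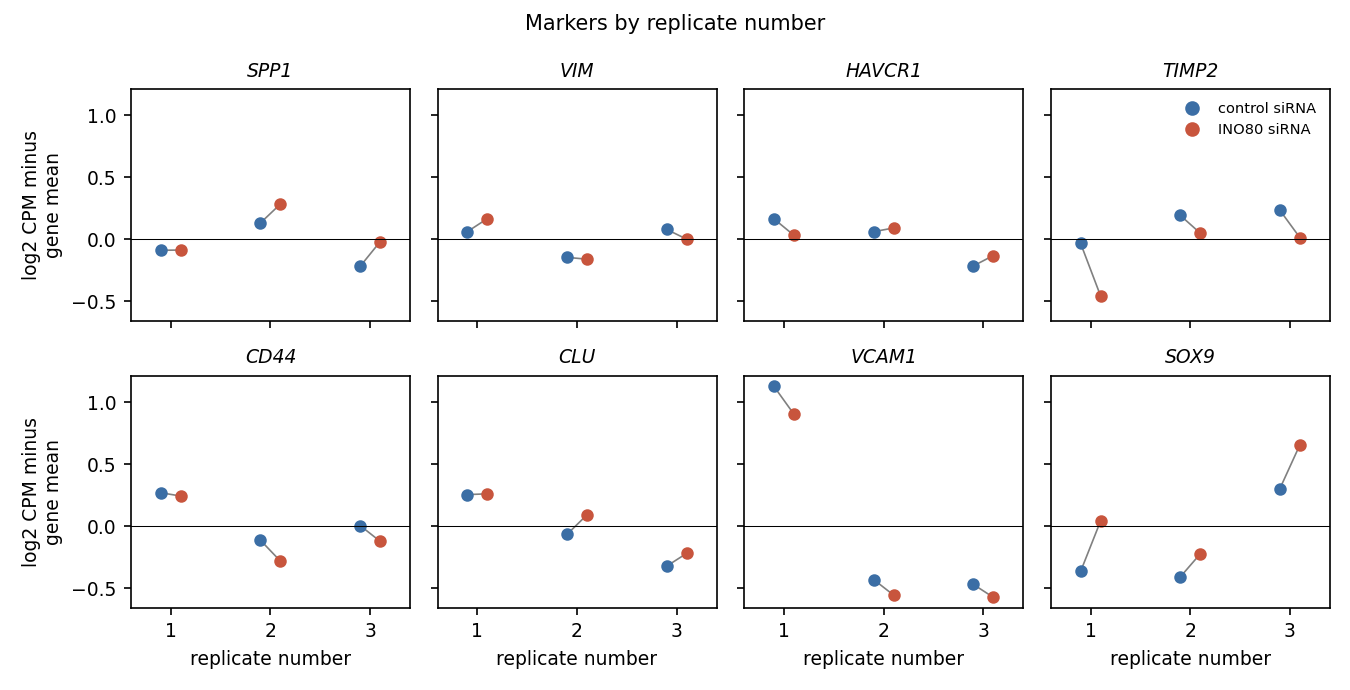
Log2 CPM of each of the 8 tested markers minus the mean of that marker over the 6 libraries, by replicate number, with grey lines joining the control siRNA (blue) and INO80 siRNA (red) library of a pair. Both VCAM1 libraries of replicate 1 stood apart from the other 4, and TIMP2 was lower with INO80 siRNA in 3 of 3 pairs.

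The sum of squares of log2 CPM over the 6 libraries was split between replicate number (2 of 5 degrees of freedom), siRNA (1 of 5) and the remainder, as a description without a test. Before the logarithm 0.5 was added to each CPM, which shrinks the differences of low genes such as SOX9. The replicate number held 98.8% for VCAM1, 94.1% for CLU, 90.5% for CD44, 89.8% for VIM, 87.7% for HAVCR1, 81.7% for SOX9 and 80.7% for SPP1. For TIMP2 it held 59.1% and the siRNA 34.0%, the largest share of the siRNA among the 8 markers. The mean over all genes tested was 48.8% for replicate number and 30.3% for siRNA. For INO80 itself the siRNA held 99.0%.

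**Figure D4:**
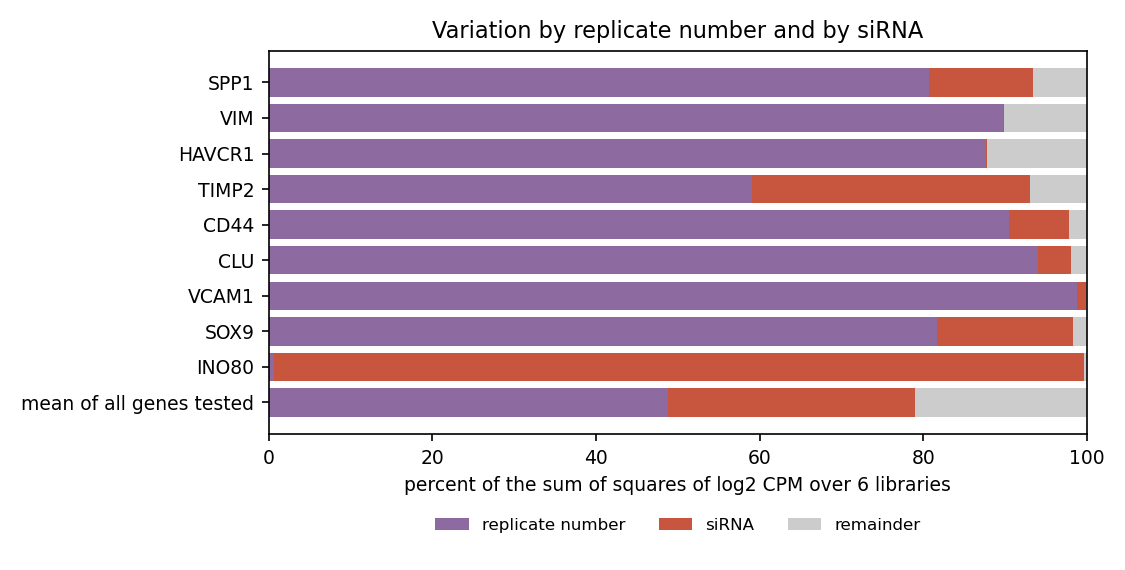
Share of the sum of squares of log2 CPM over 6 libraries, in percent, that lies between replicate numbers (purple), between the siRNAs (red) and in the remainder (grey), for the 8 tested markers, for INO80 and as the mean of all genes tested. Before the logarithm 0.5 was added to each CPM. Replicate number holds 98.8% for VCAM1 and 59.1% for TIMP2, and siRNA holds 99.0% for INO80.

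Other measures moved with the replicate number as well. Replicate 1 had the smallest total count in each group, 16829273 reads under control siRNA and 20678008 under INO80 siRNA. The list of 8 fibroblast markers, all of them in the table, had summed levels of 115.8, 64.1 and 50.6 FPKM in control siRNA replicates 1, 2 and 3, and 101.2, 64.1 and 49.4 FPKM in INO80 siRNA replicates 1, 2 and 3. Within it 4 genes were tested. LUM and DCN, which encode small proteoglycans of the matrix, were lower in replicate 3 than in replicate 1, by log2 differences of -1.20 and -2.50, and the collagen gene COL1A1 by -0.21. PDGFRB, a growth factor receptor gene with 92 reads in all, had a difference of 1.38 in the other direction, for which the replicate terms were not called (adjusted p = 0.0973, edgeR). THY1, with 55 reads, was not tested and had 5, 11 and 7 reads in control siRNA replicates 1, 2 and 3, and 8, 14 and 10 in those of INO80 siRNA. PDGFRA, COL1A2 and COL3A1 had at most 3 reads in all. The 5 endothelial markers in the table summed to between 0 and 0.03 FPKM and the 6 leukocyte markers to between 0.28 and 0.63 FPKM, with 0 reads for KDR, PTPRC and CD3E. The summed level of 18 proximal tubule markers lay between 88.2 and 94.4 FPKM and that of 8 markers of other nephron segments between 0.37 and 0.73 FPKM. This sum hides changes of single proximal tubule markers in both directions. Of the 8 tested, 5 were called for the replicate terms in edgeR, against 26.7% of all tested genes. PAX8 and MME were lower in replicate 2 than in replicate 1, by log2 differences of -0.44 and -0.69. GGT1, SLC4A4 and CDH16 were higher, GGT1 by 0.29 and SLC4A4 by 0.91. The part of depth or of other cell states in the replicate differences was not tested. In bulk RNA, fewer cells that express a gene and less RNA per cell cannot be told apart.

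Genes that are expressed with the markers in injured or repairing tubules were described from a list of 32, of which 31 were in the table and 27 were tested. None was called without the block. An unadjusted p under 0.05 in edgeR was found for 3 of them, and for 2514 of all 15343 genes tested. DESeq2 called 1, SOX4, among 610 genes called over the whole table. With the block, 7 were higher, 9 were lower and 11 were not called, that is 16 of 27 against 24.8% of all genes. Their median log2 fold change without the block was -0.023. SOX4, a transcription factor of developing and repairing epithelia, was at 115.9, 92.8 and 91.2 CPM in control siRNA replicates 1, 2 and 3, and at 83.1, 73.4 and 69.0 CPM in INO80 siRNA replicates 1, 2 and 3. The groups of SOX4 did not overlap, and both fits put its change at -0.41 on the log2 scale, with a standard error of 0.108 without the block (adjusted p = 0.106, edgeR) and of 0.0443 with it (adjusted p = 1.39e-07, edgeR).

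The other genes named from this list rose in the block fit. IGFBP7, which encodes a secreted binding protein measured together with TIMP2 as a urinary marker of tubular stress, was at 186.4, 221.6 and 210.4 CPM in control siRNA replicates 1, 2 and 3, and at 218.1, 249.9 and 252.2 CPM in INO80 siRNA replicates 1, 2 and 3. It was higher with INO80 siRNA in each pair, by 0.22 on the log2 scale in both fits, with an adjusted p of 0.242 without the block and 4.12e-05 with it (edgeR), while TIMP2 was lower in each pair. CDH6, a cadherin of the developing nephron, rose by 0.25 on the log2 scale with the block (adjusted p = 5.89e-05, edgeR, and 0.439 without it). MMP7, a matrix metalloproteinase, rose by 0.42 with the block (adjusted p = 6.33e-05, edgeR, and 0.676 without it), but differed more between replicates, from 15.3 CPM in control siRNA replicate 1 to 38.4 CPM in control siRNA replicate 3.

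Genes whose products bind the markers, process their ligands or share a family with them were described from a second list of 35, all in the table, of which 25 were tested. None was called without the block. An unadjusted p under 0.05 in edgeR was found for 5 of them, against 2514 of all 15343 genes tested. DESeq2 called 2, MMP14 and ITGB5, among 610 genes called over the whole table. With the block, 1 was higher, 8 were lower and 16 were not called, that is 9 of 25 against 24.8% of all genes (11.4% higher, 13.4% lower). The median log2 fold change of the list without the block was -0.077, with 18 genes below 0 and 7 above. Over all genes tested, 7442 were below 0 and 7901 above. The list was chosen by hand and holds several genes of the same family, and whether this lean is particular to it was not tested. MMP14, the membrane protease that TIMP2 binds and inhibits, was at 380.8, 339.2 and 371.8 CPM in control siRNA replicates 1, 2 and 3, and at 308.1, 274.8 and 294.0 CPM in INO80 siRNA replicates 1, 2 and 3. The groups of MMP14 did not overlap. Its change was -0.32 on the log2 scale in both fits (adjusted p = 0.0626 without the block and 7.65e-08 with it, edgeR). Its substrate MMP2 had 44 reads in all and TIMP3 and TIMP4 had 1 each. TIMP1, a further inhibitor of the family, was the gene that was higher, by 0.13 on the log2 scale with the block (adjusted p = 0.0159, edgeR).

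Among the receptors of osteopontin, ITGB5 and ITGB3 encode the integrin chains beta 5 and beta 3. ITGB5 was at 280.6, 310.9 and 273.2 CPM in control siRNA replicates 1, 2 and 3, and at 229.0, 254.5 and 231.2 CPM in INO80 siRNA replicates 1, 2 and 3. The groups of ITGB5 did not overlap, and with the block its change was -0.27 on the log2 scale (adjusted p = 1.15e-06, edgeR, and 0.104 without it). ITGB3 was lower with the block, with a change of -0.21 on the log2 scale (adjusted p = 0.000125, edgeR, and 0.464 without it). Its symbol stands on 2 overlapping rows of the table, of which the other held no reads, so its count is uncertain. The alpha chain gene ITGAV had a log2 fold change of 0.032 in both fits and was called in neither. HAS3, which encodes a synthase of hyaluronan, the ligand of CD44, was at 158.7, 157.6 and 134.2 CPM in control siRNA replicates 1, 2 and 3, and at 128.7, 134.7 and 108.9 CPM in INO80 siRNA replicates 1, 2 and 3. It was lower in 3 of 3 pairs, with a change of -0.28 on the log2 scale with the block (adjusted p = 6.66e-06, edgeR, and 0.205 without it).

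**Figure D5:**
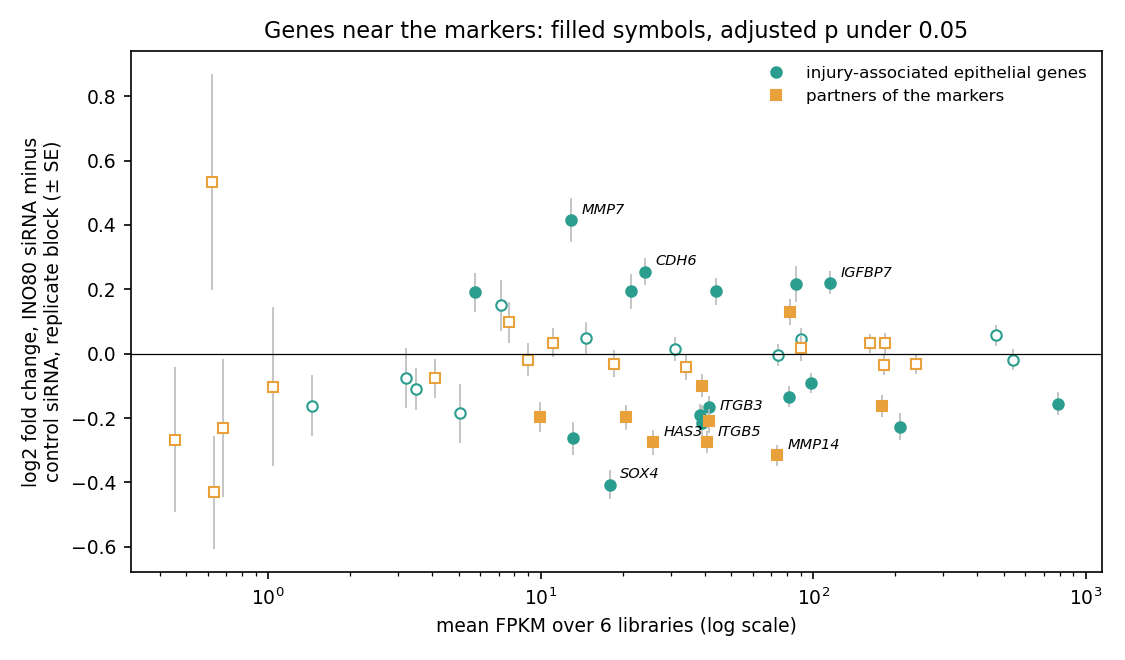
Log2 fold change with the replicate block, INO80 siRNA minus control siRNA, against the mean FPKM on a log scale, for the tested genes of the injury-associated list (green circles) and of the list of partners of the markers (orange squares). Bars are standard errors and filled symbols have an adjusted p under 0.05. Among the filled symbols, SOX4 at -0.41, MMP14 at -0.32, HAS3 at -0.28 and ITGB5 at -0.27 lie low, and MMP7 at 0.42 and CDH6 at 0.25 lie high. Of the genes not called, PROM2 at -0.43 and TIMD4 at 0.53 lie further out.

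Genes with the pattern most like that of a marker were found by the root mean square difference of log2 CPM over the 6 libraries, each gene being centred on its mean, among the 15343 genes tested. For HAVCR1 they were SOWAHC, FAM115B and POMGNT2, with differences of 0.0344, 0.0352 and 0.0364. For SOX9 they were PRR7-AS1, AC018738.2 and MORF4L2-AS1, with differences of 0.0528, 0.0680 and 0.102. Before the logarithm 0.5 was added to each CPM, which shrinks the differences of low genes. The genes found for SOX9 were low, with PRR7-AS1 at 1.40 to 3.18 CPM, AC018738.2 at 0.39 to 1.16 CPM and MORF4L2-AS1 at 0.73 to 1.45 CPM. All these genes share the same 6 libraries and were picked as the nearest of many. Shared regulation was not tested.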

How the data were processed

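Poly(A) RNA libraries were made with a directional kit and sequenced as read pairs. The authors deposited raw read counts per gene and library, and FPKM values, which equal the count scaled by exonic length and library total in all 347430 cells to within 0.01. The submitters' processing notes name HISAT2 2.0.1, HTSeq and hg19, while the paper's methods name ELAND and hg38. The table's coordinates are GRCh37 (hg19), and the strand setting is not given in the sources used here.

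Counts were compared with edgeR 4.0.16 in R 4.3.3 (filterByExpr, TMM, quasi-likelihood test) over 15343 genes, with Benjamini-Hochberg adjustment over all of them. Genes with an adjusted p under 0.05 were called. Standard errors are the absolute log2 fold change divided by the square root of F. Libraries of equal number were more alike: deviations from the group means correlated by 0.639, 0.446 and 0.427 for libraries of equal number and by at most 0.165 otherwise. The positive values among the latter, 0.121 and 0.165, were between replicates 2 and 3. Since the deviations of a group sum to 0, these correlations are not independent and do not establish a pairing. The methods name no pairing, so the block is the alternative. For single genes, 3 libraries against 3 cannot give an exact two-sided permutation p under 0.1.

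Alternatives were DESeq2 1.42.0, median ratio scaling, no filter, a fold change limit, and libraries or pairs left out. The edgeR and DESeq2 fits over all 6 libraries, with and without the block, were first tested on simulated counts. The changes simulated were 1 and 2 on the log2 scale, larger than any fitted for a marker, in genes with more reads than SOX9. For the block fits the simulated spread was the same for all genes. Whether changes as small as those of the markers are found was not tested. Genes named from the lists were, in each list, the 4 with the smallest p among those that edgeR with its filter called with the block and not without it. Other list genes (MMP2, TIMP1, TIMP3, TIMP4, ITGAV and the fibroblast markers) were named after their values were seen. The markers, lists and rules were chosen with earlier results of these data known.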

Additional observations from a re-analysis of the deposited data

How the results depend on the processing

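The number of markers called was 0 in the fit without the block, with median ratio scaling, without the filter, with a fold change limit, in DESeq2 and in each fit that left out 1 library. With the replicate block it was 3, with DESeq2 and the replicate block 2, and with the block and a pair left out between 1 and 3. Injury-associated genes called numbered 0, and 16 with the replicate block, 1 in DESeq2, 10 in DESeq2 with the replicate block, 1 without the filter, and 9 to 15 with the block and a pair left out. Partners called numbered 0, and 9 with the replicate block, 2 in DESeq2, 7 in DESeq2 with the replicate block, 2 without the filter, and 7 to 12 with the block and a pair left out. Both lists stayed at 0 in each fit that left out 1 library.

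All genes called numbered 268, or 40 higher and 228 lower. They numbered 3798 with the replicate block (1748 higher, 2050 lower), 610 in DESeq2 (129 higher, 481 lower), 1691 in DESeq2 with the replicate block (627 higher, 1064 lower), 708 without the filter (192 higher, 516 lower) and 14 with an added log2 fold change limit of 1. Leaving out 1 library gave 18 (without control siRNA replicate 3) to 146 (without INO80 siRNA replicate 1) genes, and the block with a pair left out 2251 (without replicate 3) to 3978 (without replicate 1). Fits with a library or a pair left out have fewer samples. In the block fits, most of all with a pair left out, the p-values lean on a spread estimated over many genes.

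In edgeR without the block, where no marker was called, 6 of the 8 log2 fold changes took both signs with single libraries left out, over ranges of -0.12 to 0.070 for HAVCR1, -0.83 to 0.54 for VCAM1, -0.079 to 0.085 for VIM, -0.26 to 0.016 for CD44, -0.0013 to 0.22 for SPP1 and -0.049 to 0.24 for CLU. Leaving out 1 library also makes the replicate numbers unequal between the groups. With the block and the pair of replicate 1 left out, HAVCR1 was at 0.051 and VIM at -0.051. The other markers kept their sign in each block fit with a pair left out. VCAM1 lay between -0.18 and -0.12, CD44 between -0.15 and -0.077, SPP1 between 0.079 and 0.17 and CLU between 0.052 and 0.13. TIMP2 stayed between -0.34 and -0.10 and SOX9 between 0.03 and 0.59 with single libraries left out. The number of markers that differed between replicates was 7 with median ratio scaling and in DESeq2 and 8 without the filter. The cause of these differences was not tested. Depth limits SOX9, LCN2 and PROM1, with 248, 22 and 14 reads in all.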
